A study of Mus musculus with 2 samples.

Results

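In mouse calf muscle, 1245 open chromatin regions lay at the 3′ ends of protein-coding genes, out of 63851 open regions found in both DNase-seq libraries. A region was counted when the midpoint of a peak lay within 1 kb of the end of a protein-coding transcript. The midpoint also had to lie outside coding exons and over 2 kb from every transcription start in the GENCODE M21 basic annotation. The peak had to overlap a peak of the other library. The rule was met by 1228 of the 82498 peaks of replicate 1 and 1238 of the 88198 peaks of replicate 2. In 1202 regions a peak of each library met the rule. In 18 regions the rule was met by the peak of replicate 1 alone and in 25 by that of replicate 2 alone, the overlapping peak of the other library having its midpoint outside it.

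The tissue was gastrocnemius of B6CASTF1/J males at an age of 14 days, first-generation hybrids between C57BL/6 and the wild-derived CAST strain. The series holds a single group with biological replicates 1 and 2, and no treatment, genotype or time was contrasted. Both libraries name the same donor entry and carry the unexplained words 3x Males, so the number of animals behind each library is not known and the spread between libraries may be technical. Replicate 1 was sequenced on 2 instrument models. With 2 libraries and 1 group, all values are descriptions without a test.

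DNase I cuts DNA where nucleosomes and bound proteins leave it accessible, and a footprint is a short stretch inside an open site that is cut less than its surroundings. The 3′ end of a gene is where the nascent transcript is cleaved and polyadenylated, usually downstream of an AAUAAA signal, after which the polymerase is released. Open sites near gene ends can be enhancers, unannotated starts or sites of CTCF, the zinc-finger protein that with cohesin anchors chromatin loops.

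The 3 strongest gene-end regions with no base in an exon of the basic or comprehensive annotation are shown as examples of sequences open at gene ends. Their bases are printed on the plus strand of mm10 (GRCm38), with capitals marking motif matches. The region at Ctdsp1, a phosphatase gene, spans chr1:74397361-74397580 and starts beyond the transcript end. Its capitals mark SP/KLF (GGGCGG), ETS (CCGGAAG, here on the other strand) and STAT (TTCNNNGAA) matches. The region at Fam120a, which codes for an RNA-binding protein, spans chr13:48878681-48878900 and has only SP/KLF matches. The region at Acvrl1, the endothelial receptor ALK1, spans chr15:101145501-101145700 and combines a CTCF match, directly followed by an NFY match (CCAAT), with an E-box (CAGCTG) near its end.
Ctdsp1: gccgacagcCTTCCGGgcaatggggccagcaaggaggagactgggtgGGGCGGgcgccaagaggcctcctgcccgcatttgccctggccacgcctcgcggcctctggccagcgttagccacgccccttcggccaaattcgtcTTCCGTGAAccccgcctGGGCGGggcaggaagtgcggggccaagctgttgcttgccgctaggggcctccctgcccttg
Fam120a: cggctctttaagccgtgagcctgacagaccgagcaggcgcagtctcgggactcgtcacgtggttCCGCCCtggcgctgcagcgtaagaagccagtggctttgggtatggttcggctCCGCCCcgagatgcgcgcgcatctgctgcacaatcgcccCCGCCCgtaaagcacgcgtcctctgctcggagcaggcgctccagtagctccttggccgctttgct
Acvrl1: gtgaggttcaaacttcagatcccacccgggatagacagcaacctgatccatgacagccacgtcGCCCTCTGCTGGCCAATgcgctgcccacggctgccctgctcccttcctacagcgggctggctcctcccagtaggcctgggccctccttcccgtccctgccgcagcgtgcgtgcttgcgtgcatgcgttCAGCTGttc

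Of the motifs searched, the CTCF consensus had the highest ratio of its share in open gene-end regions to its share in near-end sequence as a whole. The matches of the 6 strongest regions that carry it are shown as 30 bases on the strand of the consensus, with the match in capitals. In the order printed they lie at chr8:84815722-84815751 (minus strand), chr15:101145555-101145584 (minus), chr19:5850355-5850384 (minus), chr12:111668521-111668550 (plus), chr6:124903741-124903770 (plus) and chr3:87987135-87987164 (minus). The matches of Dand5, a secreted antagonist of Nodal, and Frmd8, a FERM-domain gene, lie in 3′ UTRs. Those of Acvrl1, Ckb (brain-type creatine kinase), Lag3 (an immune checkpoint receptor) and Bcan (the proteoglycan brevican) lie past the transcript.
Dand5: cgcttttagCCACTAGGTGGCaccgcgtcc
Acvrl1: gcgcattggCCAGCAGAGGGCgacgtggct
Frmd8: cagctgtgaCCAGCAGGGGGCagctgagcc
Ckb: tgagcctgaCCAGCAGGTGGCagcacaaga
Lag3: gagcggtgaCCACTAGGTGGCagtgtgttg
Bcan: aggctgtgaCCAGTAGAGGGCgctgcagat

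The tissue label was checked against marker genes. Promoters of 12 of 12 skeletal muscle markers were open in both libraries and those of 0 of 4 liver markers. Markers of other cells were also open, namely 3 of 3 of fibroblasts, 2 of 3 of endothelium, 2 of 3 of Schwann cells, 1 of 4 of leukocytes (Cd68) and 1 of 3 of epidermis (Trp63). In bulk tissue, a weak site in many nuclei and a strong site in few cannot be told apart.

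Open regions were denser at gene ends than elsewhere. The 40.7 Mb of sequence that met the rule held 30.6 regions per Mb, while the remaining 2360 Mb outside coding exons and over 2 kb from starts held 15.5, a ratio of 1.97. Counted on the peaks of each library, the ratio was 1.92 in replicate 1 and 1.94 in replicate 2. The excess was present at every distance from the nearest start. It was 1.47-fold at 2 to 5 kb, 1.83-fold at 5 to 10 kb, 1.68-fold at 10 to 50 kb and 2.19-fold beyond 50 kb, the last from 49 regions.

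Of the regions, 705 (56.6%) lay past the nearest transcript end and 540 before it. A region past the nearest end can still lie within another transcript, as did an Nfix region 363 bases past an end, in a 3′ UTR. In bins of 250 bases the density ran from 23.4 to 35.5 regions per Mb, and every bin was above the 15.5 of sequence elsewhere. The lowest value belonged to the last 250 bases of transcripts (128 regions) and the highest to the stretch 500 to 750 bases past the end (182 regions). The AATAAA signal on the transcript strand was found in 14.1% of regions in those last 250 bases and in 9.29% in the first 250 bases past the end. In the other bins it was found in 1.78% to 5.88%.

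**Figure D1:**
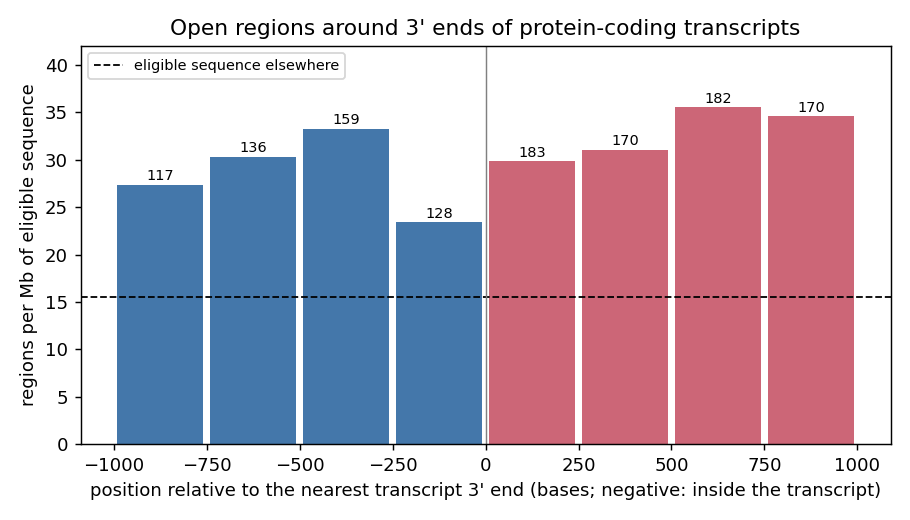
Density of shared open regions in bins of 250 bases around the nearest 3′ end, on the strand of the transcript (x axis, bases; y axis, regions per Mb of eligible sequence). Numbers above bars are regions, blue bars lie before the nearest end and red bars past it. All 8 bars, from 23.4 to 35.5, stand above the dashed line at 15.5 for eligible sequence elsewhere.

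By annotation, 519 regions (41.7%) lay in 3′ UTRs, 479 (38.5%) between genes, 242 (19.4%) in introns and 5 in other noncoding exons. The corresponding densities were 30.4 per Mb in 3′ UTRs, 34.1 between genes and 25.5 in introns. The nearest start in the basic annotation was a median of 8636 bases away. There were 81 regions within 1 kb of the ends of 2 or more genes, and 78 within reach of ends on both strands. On autosomes the density ran from 17.0 per Mb on chromosome 14 to 41.4 on chromosome 11. Chromosome X, most of which is single-copy in males, held 16 regions at 9.72 per Mb, and its sequence elsewhere 5.18, a ratio of 1.88. Among the 16, the 3 regions at Gm21887 and a region at Mid1 had at least 1 near-identical copy elsewhere on the nuclear chromosomes. The part of these copies in the density was not tested. No region lay on chromosome Y.

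Gene-end regions were stronger than other regions away from starts. The signal, a score of DNase cutting that the authors assigned to each peak, had a median of 1.58 in replicate 1 and 1.33 in replicate 2. Because its scaling is not known, each peak was ranked among all peaks of its library and the percentiles were averaged over the libraries. The median percentile was 62.3 at gene ends, compared with 51.6 in introns elsewhere, 50.4 between genes elsewhere, 53.3 in coding exons and 76.1 within 2 kb of starts. Taken on each library's own peaks, the gene-end median was 59.8 in replicate 1 and 68.0 in replicate 2 (63.9 ± 5.79, SD, n = 2).

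**Figure D2:**
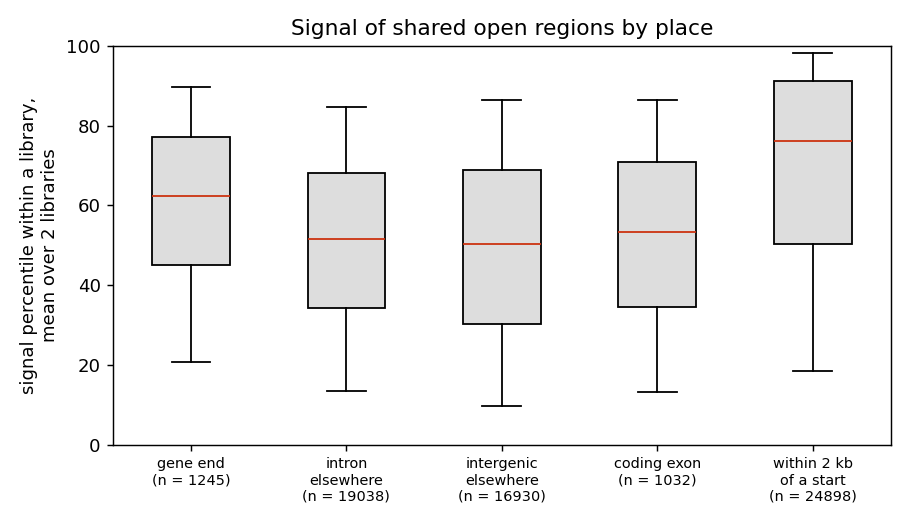
Signal percentile of shared regions by place (y axis, percentile among the peaks of a library, mean over 2 libraries). Boxes span the quartiles with the median in red, and whiskers reach the 5th and 95th percentile of regions. The gene-end median of 62.3 lies above those of introns (51.6), intergenic sequence (50.4) and coding exons (53.3) and below that of regions within 2 kb of a start (76.1).

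Signal was similar on both sides of the end. The median percentile was 60.9 before the end and 63.3 past it, and it was 61.4 in 3′ UTRs, 64.1 between genes and 62.1 in introns. At the outer border of the rule, 120 regions at 900 to 1000 bases had a median of 55.5, and 95 regions just outside, at 1000 to 1100 bases, had 56.9. At the border with starts, 24 regions at 2000 to 2200 bases had 66.8 and 24 regions at 1800 to 2000 bases had 64.9.

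Peaks had a median width of 180 bases in both libraries. A footprint was found in both libraries in 96.0% of gene-end regions, compared with 95.1% in introns elsewhere, 94.9% between genes elsewhere and 88.3% within 2 kb of starts. The mean was 2.89 footprints per region in replicate 1 and 3.41 in replicate 2, and in 92.7% of regions a footprint of one library overlapped one of the other. Footprints were more frequent in stronger regions. Below percentile 25, 80.2% of 101 gene-end regions had a footprint in both libraries, compared with 85.3% of introns elsewhere. Between 25 and 50 the shares were 93.3% and 93.4%, between 50 and 75 98.1% and 98.4%, and above 75 99.7% and 99.8%.

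The strongest gene-end region lay in the 3′ UTR of Cers5, which codes for a ceramide synthase, 279 bases before the end. It had signals of 32.5 and 30.6 and a width of 420 bases. It held 5 footprints in replicate 1 and 1 in replicate 2.

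Second was a region in the 3′ UTR of Lars2, the mitochondrial leucyl-tRNA synthetase, with signals of 21.9 and 46.7. This sequence had 1 near-identical copy and 13 matches in all elsewhere on the nuclear chromosomes, and the part of these copies in its signal was not tested. Relative to the median ratio of replicate 1 to replicate 2 over all shared regions (1.55), it was 3.29-fold to the side of replicate 2.

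The regions printed above followed. The Ctdsp1 region, 186 bases past the end, had signals of 17.8 and 10.6, and the promoter of the same gene had 17.3 and 6.96. At Fam120a, 448 bases past the end, the signals were 16.9 and 8.12, and they exceeded the promoter signals of 5.42 and 3.41. The Acvrl1 region reached 10.9 and 6.39 while its promoter had 2.29 and 1.61.

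Most of the other regions among the 10 strongest lay inside their genes. Trim14, a gene of the TRIM family, had a region with its midpoint in an intron and signals of 13.2 and 6.69, far above its promoter at 0.892 and 0.495. Dand5 had 10.3 and 9.20 in its 3′ UTR, against 1.60 and 1.29 at its promoter. Frmd8 had 9.74 and 6.87, and Bcat2, the mitochondrial branched-chain aminotransferase, 10.2 and 6.35. The region past Ssrp1, a subunit of the histone chaperone FACT, had 13.5 and 6.36, and it lay 14 bases from a start that only the comprehensive annotation holds.

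Unannotated or rarely used starts are one class that the basic annotation would not exclude. There were 167 regions (13.4%) within 2 kb of a start present only in the comprehensive set. Their median percentile was 67.9, compared with 61.6 for the other 1078. The share of near-end sequence, or of regions elsewhere, that lies this close to such starts was not computed, so the 13.4% has no background. Among the regions described here, ones at Ssrp1, Frmd8, Junb, Nfix, Nfic and Stac3 lay within 2 kb of such a start. The same held for regions at Dysf, Pkm, Eif3k, Sept1, Scnm1 and Plin1. CpG-rich windows, with an observed over expected CpG ratio of at least 0.6 and at least 50% GC, made up 105 regions (8.43%) at gene ends. The share was 3.26% in introns elsewhere, 6.01% between genes elsewhere and 62.0% within 2 kb of starts. The CpG-rich gene-end regions had a median percentile of 80.3 and the rest 61.4. Among the 50 strongest regions 19 were CpG-rich, 13 had a CTCF match and 19 had neither.

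CTCF matches were more frequent at gene ends than in the 4 other classes of region compared. A match to the consensus without mismatch stood in the 200 bases around the peak in 183 regions, or 14.7% (95% Wilson interval 12.8 to 16.8%, counting error only). The share was 6.69% of all shared regions, 8.51% of introns elsewhere, 10.1% between genes elsewhere, 7.07% in coding exons and 2.46% within 2 kb of starts. In the sequence near ends regardless of openness, 0.191% of 203392 windows of the same length held a match. Allowing 1 mismatch gave 34.0% at gene ends, compared with 22.9% in introns and 25.8% between genes elsewhere.

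**Figure D3:**
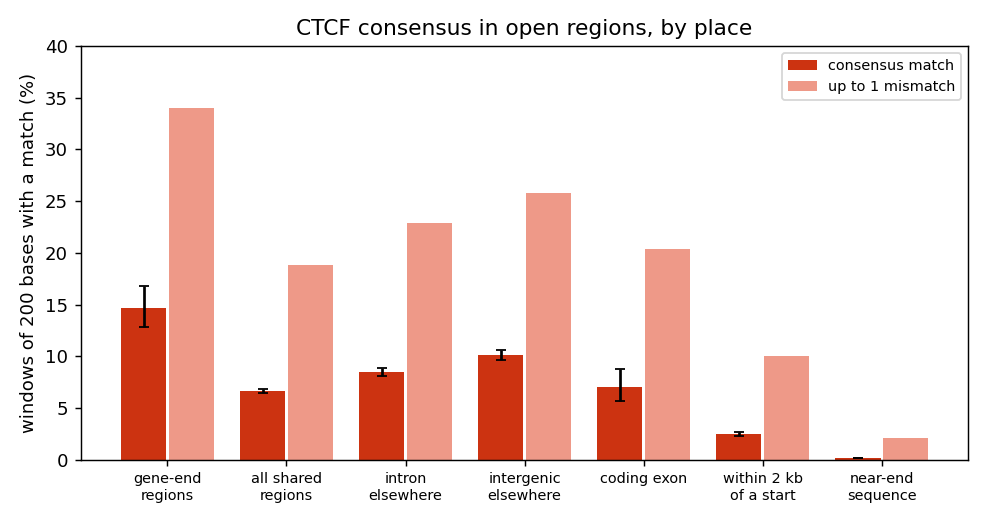
Share of windows of 200 bases with a CTCF consensus match (y axis, %) by place, without mismatch (dark, with 95% Wilson intervals) and with up to 1 mismatch (light). The bar of gene-end regions is the tallest of the dark bars at 14.7%, and near-end sequence regardless of openness is at 0.191%.

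Matches near ends were also open more often, and open regions of any kind were 1.97-fold denser there than elsewhere. The rise was not particular to CTCF. Of 423 consensus matches in eligible sequence near ends, 192 (45.4%) lay in a shared open region, and of 10854 matches elsewhere 3455 (31.8%). The share was 2.13% near ends and 1.58% elsewhere for the E-box, and 4.99% and 2.70% for SP/KLF. For MEF2, the muscle and heart enhancer factor, it was 0.727% near ends, or 6 of 825 matches, and 0.716% elsewhere.

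The matches overlapped footprints. In 178 of the 183 regions a CTCF match overlapped, by 1 base or more, a stretch covered by footprints of both libraries. This held for 91 of 187 regions with SP/KLF and 78 of 326 with an E-box. Those matches are shorter than the 12 bases of the CTCF consensus, and a longer match overlaps a footprint more easily. The match stood a median of 7 bases from the middle of the peak, and within 50 bases in 181 regions. The longest footprint of a region had a median length of 28 and 31 bases with a CTCF match and 24 and 24 bases without. The share with a match was similar in all places, at 13.7% in 3′ UTRs, 15.4% between genes and 15.3% in introns. Of 180 regions with a single match, 101 had it on the strand of the transcript and 79 on the opposite strand.

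Other motifs were both more and less frequent at gene ends than in distal regions. The E-box CAGCTG, bound by the myogenic factors among others, was present in 26.2% of gene-end regions, in 29.2% of introns and 27.5% of intergenic regions elsewhere, and in 9.10% of near-end windows. SP/KLF (GGGCGG) was present in 15.0%, a difference from distal regions about as large as that of CTCF, with 9.18% in introns, 10.3% between genes and 50.4% within 2 kb of starts. AP-1 (TGANTCA) stood in 6.67% at gene ends, below the 10.5% of introns and 10.8% between genes. The NFI element TTGGCA stood in 17.4%, compared with 22.9% and 21.6%. For RUNX (ACCACA) the value was 14.7% and for TEAD (GGAATG) 12.4%, with near-end windows at 14.9% and 10.6%. MEF2 matches were found in 6 regions (0.482%), with 0.945% in introns, 0.916% between genes and 0.378% in near-end windows. A CREB match (TGACGTCA) was found in 1 region (0.0803%), with 0.446%, 0.478% and 0.120% in the same order. All motifs were searched on both strands.

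The ratio of the libraries at gene ends was near that of intergenic regions. The ratio of replicate 1 to replicate 2 had a median of 1.31 at gene ends, 1.34 between genes elsewhere, 1.48 in introns elsewhere, 1.72 within 2 kb of starts and 1.55 over all shared regions. Relative to the latter, 262 gene-end regions (21.04%) were shifted at least 2-fold to replicate 2, compared with 11.6% of all shared regions. The share was 18.9% between genes elsewhere, 14.5% in introns elsewhere and 4.10% within 2 kb of starts. To replicate 1, 32 (2.57%) were shifted, compared with 2.4%. Across regions, which are not replicates, Spearman's rho between the libraries was 0.687 over the 1245 gene-end regions, 0.685 in introns elsewhere, 0.730 between genes elsewhere and 0.823 over all 63851.

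The shift to replicate 2 moved with the CTCF match. The 183 regions with a match had median signals of 1.77 in replicate 1 and 2.30 in replicate 2, and the 1062 regions without had 1.55 and 1.17. At least 2-fold to replicate 2 were 43.2% of those with and 17.2% of those without a match. With 1 mismatch allowed, the shares were 44.9% and 8.76%, and 190 of the 262 shifted regions had such a match. The same split was present over all shared regions, at 43.0% and 4.32%. The part of depth, library preparation or animal in this shift was not tested.

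**Figure D4:**
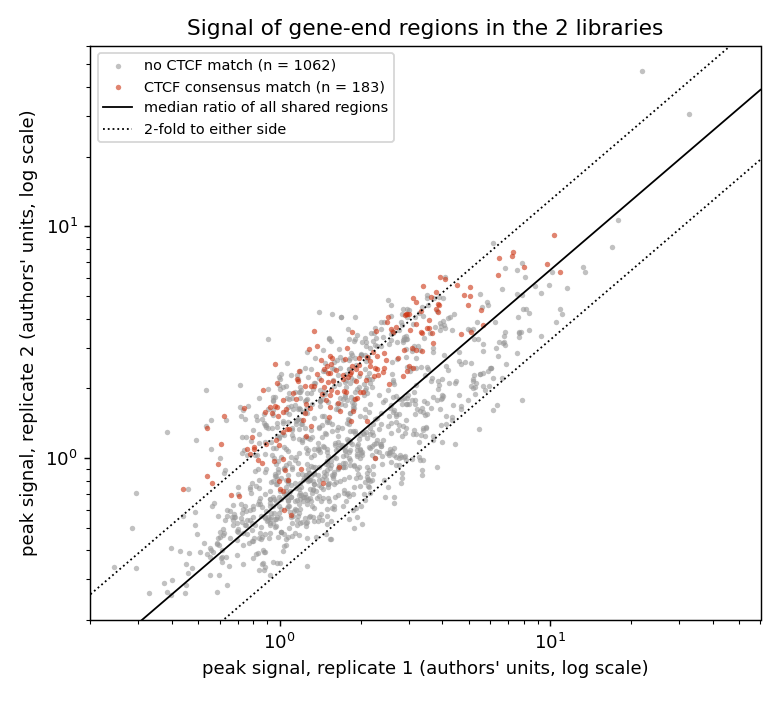
Peak signal of the 1245 gene-end regions in replicate 1 (x axis) and replicate 2 (y axis), both log scales in the authors' units. Red points (183 regions) have a CTCF consensus match, the solid line is the median ratio of all shared regions (1.55) and the dotted lines are 2-fold from it. Red points crowd near or above the upper dotted line, where 43.2% of them lie.

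The largest shifts were found at single genes. At Tes, a focal adhesion gene, the signals were 0.535 and 1.97, at Sdccag8, a centrosomal gene, 0.903 and 3.28, and at Gm10037 0.385 and 1.30. Relative to the median ratio these were 5.22-fold to 5.70-fold to the side of replicate 2, and none of them had a CTCF match without mismatch. Toward the opposite extreme were Thap3 with 7.86 and 1.78 and Znrf3, a ubiquitin ligase of Wnt receptors, with 2.66 and 0.642. On the same scale those were 2.86-fold and 2.68-fold to the side of replicate 1. Several of these ratios rest on a narrow peak in the library with the lower signal. In replicate 1 the peaks spanned 57 bases at Tes, 124 at Sdccag8 and 23 at Gm10037. In replicate 2 they spanned 63 bases at Znrf3 and 180 at Thap3.

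Each region was credited to the gene with the nearest end, its host. A gene whose end lay within 1 kb but farther away was not counted for that region. The hosts were 1118 genes, or 5.7% of the 19630 protein-coding genes with eligible sequence at an end. A single region was found at 1008 genes, 2 at 98, 3 at 11 and 8 at 1. The promoter was open in both libraries at 882 of the 1118 genes (78.9%), compared with 63.3% of all eligible genes. Where it was open, the median promoter percentile was 89.9 at these genes and 90.2 at all eligible genes. Across these 882 genes, which are not replicates, Spearman's rho between promoter and gene-end percentile was 0.0911.

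The gene with 8 regions was Tns1, which codes for the focal adhesion protein tensin. Its regions were broad and weak, with percentiles from 2.67 to 19.0 and widths from 260 to 680 bases, and none had a CTCF match. There were 11 genes with 3 regions, of which Atf6b, Copz2, Eif3k and Extl1, first by alphabet, are described here. Copz2, a coatomer subunit, had 3 regions, 888 and 428 bases past and 462 bases before an end, at percentiles of 95.3, 59.3 and 90.3. Atf6b, a stress sensor of the endoplasmic reticulum, had 3 at 89.8, 74.1 and 68.4. Those of Extl1, an exostosin-like glycosyltransferase, ranged from 73.5 to 84.5. Eif3k, an initiation factor subunit, had 3 at 75.6, 61.7 and 49.2.

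Width and footprint number picked out other genes. The widest region, 1129 bases across the end of the semaphorin gene Sema6c, had 11 footprints in each library at signals of only 1.00 and 0.551. Next in width were Zfp503 with 940 bases, Bcl2l14 with 708 and Acta1 with 700. Ankrd9 had 10 and 11 footprints in a region of 460 bases, and the splicing gene Scnm1 10 and 10 in 540 bases that also lay near the end of the tropomodulin gene Tmod4. Sept1, whose region also lay near the end of the fast myosin light chain gene Mylpf, had 9 and 9. Nfic, a nuclear factor I gene, had 9 and 8.

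Muscle genes were among the hosts. Of the fast fibre and sarcomere genes 5 of 51 eligible were hosts (9.80%), compared with 5.7% of all eligible genes. At Fhl3, a LIM-domain gene, regions 500 and 160 bases past the end had signals of 7.68 and 3.51 and of 5.67 and 3.10. Tnni1, the slow troponin I, had 2.24 and 3.48 at 462 bases past its end, which is 2.40-fold to the side of replicate 2 relative to the median ratio of all shared regions. Acta1, skeletal actin, had 2.84 and 1.80 at 298 bases past the end and 1.67 and 0.794 in the wide region before it. Fhl1, on chromosome X, had 1.21 and 1.17, and Myl2, the slow and cardiac light chain, 0.987 and 1.53 with a CTCF match. The promoters of Fhl3, Acta1 and Fhl1 had a peak in both libraries, whereas those of Tnni1 and Myl2 had a peak in neither.

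Genes of the membrane, of excitation-contraction coupling and of the neuromuscular junction were hosts in 6 of 36 cases (16.7%). The share over all eligible genes was 5.7%. Stac3, an adaptor of the calcium channel of muscle, had 3 regions, of which that 308 bases past the end carried a CTCF match and had signals of 2.96 and 2.37. Dysf, the membrane repair protein dysferlin, had 4.00 and 1.82 before an end, 233 bases from a start of the comprehensive set, and 2.88 and 1.01 past it. The calcium channel subunit genes Cacnb1 and Cacng1 had 2.06 and 2.44, and 0.925 and 0.665. Musk, the receptor kinase of the junction, had 1.49 and 1.10 at 28 bases past its end, and Dtna 0.602 and 0.482.

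Regulators of muscle were hosts in 9 of 64 cases (14.1%), compared with 5.7% of all eligible genes. Nfix, a switch factor between fetal and later myogenesis, had 3 regions, the strongest with signals of 4.97 and 4.59, and 2 of them had a CTCF match. The strongest lay 1143 bases and the weakest 33 bases from a start of the comprehensive set. The clock gene Per1 had 3.88 and 4.95, and the myogenic factor Myod1 3.53 and 2.44 at 102 bases past its end, with an E-box and an SP/KLF match. Nfic had 3.98 and 2.20, and Mef2b 1.59 and 2.06. Weaker regions stood at Bcl6 (1.59 and 0.619), Myog (0.970 and 0.835) and Mef2a (1.06 and 0.752).

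**Figure D5:**
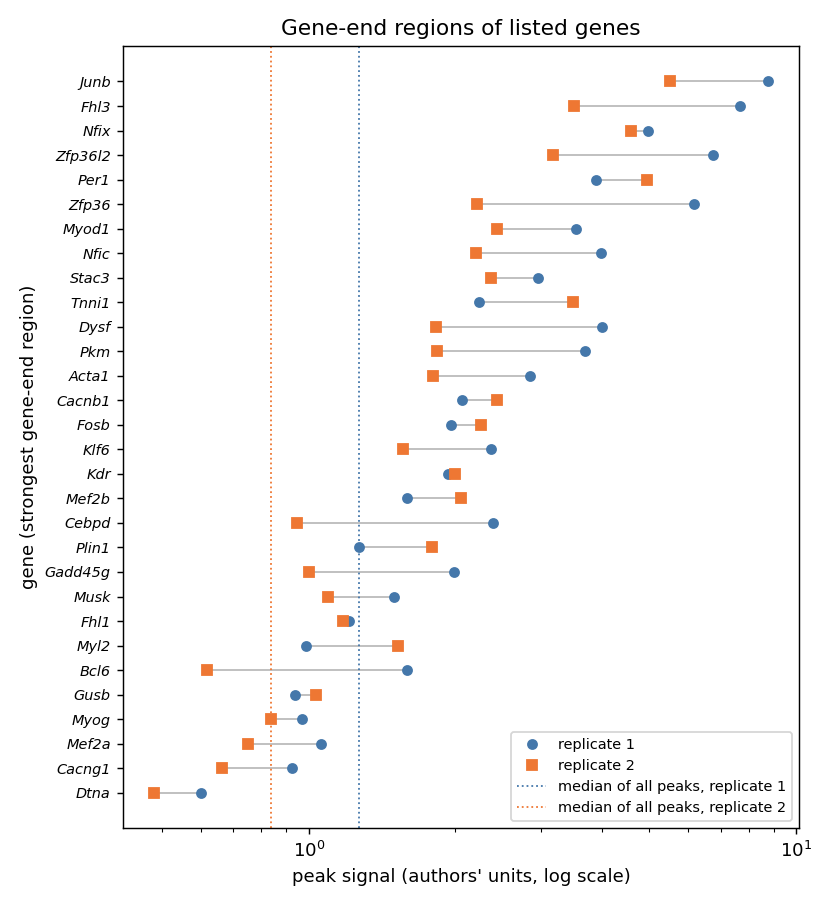
Signal of the strongest gene-end region of the listed host genes named in the text in replicate 1 (circles) and replicate 2 (squares), on a log axis in the authors' units, with dotted lines at the median of all peaks of each library (1.27 and 0.835). Junb is highest and Dtna lowest in both libraries, and the order of the 2 libraries differs between genes.

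Immediate early and stress response genes were hosts in 7 of 40 cases (17.5%), compared with 5.7% of all eligible genes. Junb, an AP-1 subunit, had 8.76 and 5.51 at 279 bases past its end, 89 bases from a start that only the comprehensive set holds. Zfp36l2 and Zfp36, which promote decay of messenger RNAs, had 6.76 and 3.17, and 6.17 and 2.21, at 290 and 273 bases past their ends. Fosb had 1.96 and 2.26, Klf6 2.36 and 1.56, Cebpd 2.39 and 0.945, and Gadd45g 1.99 and 1.00.

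The other lists had 0 or 1 host each, or 0 to 4.00% of their eligible genes, compared with 5.7% of all eligible genes. Energy metabolism had 1 of 44, the pyruvate kinase gene Pkm with 3.69 and 1.83, which lay 3 bases from a start of the comprehensive set. Connective tissue and vessel genes had 1 of 50, the endothelial receptor gene Kdr, with 1.93 and 2.00. Schwann cell, blood and fat genes had 1 of 25, the lipid droplet gene Plin1 with 1.27 and 1.79, ubiquitous genes 1 of 26, Gusb with 0.936 and 1.04, and genes of other tissues 0 of 25. The lists are small, and no list was tested against the others or against all eligible genes.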

How the data were processed

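Peak and footprint lists and tracks of FDR per base from 2 DNase-seq libraries were used as deposited, on mm10. Per the file headers and read-me texts, each library was called from its own alignment. The signal is a per-peak value of the authors with unstated scaling. The deposited p-value columns hold the FDR of the cut rate and, for footprints, a constant threshold of 0.01. Aligner, callers, versions and read depth were not given in the labels or headers, so no depth-based precision can be stated. Every peak of the shorter list, used here, held a base with an FDR of at most 0.001.

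Transcripts came from the GENCODE M21 basic set (45104 protein-coding transcripts with 39202 unique ends). Overlapping peaks (1 base or more) were merged. A gene-end region took the position of its peak with the highest percentile among those that met the rule. Any other shared region took that of its highest peak that overlapped one of the other library. A promoter was 1 kb to either side of a start. Motifs were searched in 200 bases of the RefSeq GRCm38 genome around that position. Near-identical copies (95% identity over 80% of the length) were searched with BLAST 2.17.0 and found for 15 regions. Python 3.11.15, numpy 2.4.6, pandas 2.3.3 and scipy 1.17.1 were used. The selection was tested on simulated data.

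Regions, lists and motifs were chosen with earlier results of these data known. Named were the 10 strongest regions, the 5 with most footprints, the 5 widest, the 3 with the highest and the 3 with the lowest ratio, the 5 genes with most regions (ties in alphabetical order) and up to 3 hosts per list. A few of these genes are not reported here. The remaining hosts of the lists, the printed CTCF sites of Ckb, Lag3 and Bcan, the CTCF results, CpG-rich windows and the comprehensive annotation were added after values were seen.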

Additional observations from a re-analysis of the deposited data

How the results depend on the processing

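The count of regions was 1245 as reported. It was 2045 with the permissive peaks, 686 with peaks at or above the median signal, 658 with a window of 500 bases and 2193 with 2 kb. Host genes numbered 1747, 626, 615 and 1885 under the same settings. Of the regions, the share past the end was 54.3% with permissive peaks, 57.7% at or above the median, 56.7% with a reciprocal overlap of 50%, 55.6% and 57.0% with windows of 500 bases and 2 kb, 56.6% with complete ends, 56.9% with the last end of a gene, 57.2% and 54.9% over 1 and 5 kb from starts, 57.1% with the comprehensive annotation and 57.0% without near-identical copies. In the same order up to the comprehensive annotation, and leaving out complete ends, the density ratio was 1.91, 2.73, 2.00, 1.92, 1.90, 2.05, 1.92, 2.04 and 1.86. The share with a footprint in both libraries was 88.8%, 99.1%, 97.1%, 95.7%, 95.5%, 95.6% (last end), 95.7% (over 5 kb), 96.1% (comprehensive) and 94.6% with footprints wholly inside the peak. The CTCF share was 11.3%, 18.5%, 15.7%, 13.8%, 15.4%, 14.6% (complete ends), 15.4% (last end), 14.2% and 15.3% (1 and 5 kb), 14.2% (comprehensive) and 34.0% with 1 mismatch. The median percentile was 75.1 with peaks at or above the median, which removes weak peaks by construction. The share shifted to replicate 2 was 16.0% with permissive peaks and 24.6% at or above the median. With 1 library at a time and no overlap asked, there were 1615 to 1778 regions at 1343 to 1526 genes, 54.4% to 56.8% past the end, percentiles of 51.6 to 57.3, footprints in 91.8% to 94.8%, density ratios of 1.93 to 1.95 and CTCF shares of 11.3% to 14.5%. Apart from that median, the cause was not tested. Many of these differences are no larger than those between the 2 libraries taken alone. No paired analysis was possible because there is only 1 group. The signal scaling and the number of animals limit all comparisons between libraries. The 519 regions in UTRs and the regions near comprehensive starts depend on the annotation.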
